A study of Homo sapiens with 4 samples.

Results

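Solute carrier genes, named SLC with a family number, the letter A and a member number, had 238 regions in a table of 29302 ChIP-seq regions from T98G cells, an established human glioblastoma cell line. The regions were chosen by symbol alone, as every row that the authors annotated to a protein-coding gene of that name pattern, and belonged to 137 genes. The LGP2 group was T98G cells that overexpressed LGP2, an RNA helicase of the cytosol related to RIG-I, and the vector group was T98G cells with the empty vector. Both groups were the same line, grown in the same serum-containing medium and fixed with formaldehyde, and each had 1 ChIP library and 1 input library. Values of the input libraries were not used here. No source used here names the antibody of the LGP2 library, and the vector pair is listed by the study with its crotonylated-lysine data, so signal means ChIP reads of an unstated target. With 1 library per group there was no replicate check and no test between the groups. In bulk chromatin, fewer cells with signal at a place and less signal per cell cannot be told apart, and the regions hold no markers by which the cell line could be checked.

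Solute carriers are membrane proteins that move small molecules across a membrane without splitting ATP. Some let a solute run down its own gradient, as the glucose carriers do, and others couple it to a gradient of sodium, protons or chloride, as the glutamate and neurotransmitter carriers do. Families are built on sequence relatedness and often share a kind of solute, so that amino acids, sugars, lactate, metals and nucleosides each have families of their own. In brain tissue the glutamate carriers of glial cells clear transmitter from the synapse. In glioma cells the exchange of cystine for glutamate, the uptake of glucose and the export of lactate are well-studied carrier functions.

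At 5 genes a called region reached into the promoter window that RefSeq gives for the same gene, and the shared stretch is printed here because there a called region met a RefSeq start of its own gene. Reads were counted over wider windows and are not placed within the stretch, and SLC genes missing from the promoter table could not be examined. The sequences are from RefSeq on GRCh38.p14, read 5′ to 3′ on the strand of the gene, with bases from the start onward in capitals and at most 30 of these shown. The stretch of SLC15A2 lies wholly before the start and has no capitals.
SLC32A1: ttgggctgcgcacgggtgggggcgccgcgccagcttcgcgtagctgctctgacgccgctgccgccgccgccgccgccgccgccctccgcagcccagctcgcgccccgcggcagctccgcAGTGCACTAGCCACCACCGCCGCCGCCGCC
SLC25A33: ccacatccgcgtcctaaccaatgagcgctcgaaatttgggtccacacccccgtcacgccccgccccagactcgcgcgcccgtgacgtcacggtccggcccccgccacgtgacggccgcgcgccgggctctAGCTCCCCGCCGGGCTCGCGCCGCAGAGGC
SLC1A6: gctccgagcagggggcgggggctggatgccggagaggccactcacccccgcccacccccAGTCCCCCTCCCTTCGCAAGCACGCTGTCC
SLC5A5: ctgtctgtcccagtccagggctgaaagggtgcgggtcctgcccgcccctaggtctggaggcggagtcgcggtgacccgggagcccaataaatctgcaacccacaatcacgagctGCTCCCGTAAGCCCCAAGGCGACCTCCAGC
SLC15A2: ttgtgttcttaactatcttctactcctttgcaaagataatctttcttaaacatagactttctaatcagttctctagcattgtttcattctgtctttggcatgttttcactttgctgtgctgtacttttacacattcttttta
SLC32A1, the carrier that loads GABA and glycine into synaptic vesicles, had the stretch at chr20:38724367-38724515 (plus strand). The region was called in the LGP2 library only, with 6 reads in the LGP2 library and 3 in the vector library. The other 4 were called in the vector library only. SLC25A33, a mitochondrial carrier of pyrimidine nucleotides, had the stretch at chr1:9539335-9539494 (plus strand), with 1 LGP2 read and 4 vector reads. SLC1A6, a neuronal glutamate carrier, had it at chr19:14979835-14979923 (minus strand), with 0 LGP2 reads and 4 vector reads. The start used there is a start inside the gene, 30720 bp from the outer end of the RefSeq gene. SLC5A5, the sodium-iodide symporter of the thyroid, had it at chr19:17871831-17871974 (plus strand), with 2 LGP2 reads and 4 vector reads. SLC15A2, a proton-coupled peptide carrier, had it at chr3:121894151-121894292 (plus strand), with 2 LGP2 reads and 5 vector reads. At all 5 the 95% Poisson intervals of the reads overlapped, which does not show that the libraries agreed there, and no region was tested.

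The windows around these starts were rich in G and C except for one. Over 300 bases, 250 before the start and 50 after it, GC content was 74.0% at SLC32A1, 72.7% at SLC25A33, 74.7% at SLC1A6, 63.7% at SLC5A5 and 41.3% at SLC15A2. The median over 35116 RefSeq promoters was 58.7%, and it was 63.7% over promoters of the SLC genes with a region, of which 103 of 137 were found in that table. The letters GGGCGG, searched on both strands, were in 4 of the 5 windows, all but that of SLC15A2. They were in 45% of all promoters and 52.1% of the SLC promoters. The letters CCAAT were in the windows of SLC5A5, SLC25A33 and SLC32A1, and in 34.6% of all promoters and 29.3% of the SLC promoters. The letters TATAAA were in none of the 5 and in 11.5% of all promoters and 11.4% of the SLC promoters. These are matches of letters only.

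More regions of SLC genes were called in the LGP2 library than in the vector library. Of the 238 regions, 145 were called only in the LGP2 library, 93 only in the vector library and 0 in both. The LGP2-only share was 60.9% (exact Clopper-Pearson 95% interval 54.4 to 67.2), beside 55.0% of all regions called in 1 library and 56.5% [55.6 to 57.4] of those of other coding genes. The interval of the SLC share holds both figures, so the share was near the background. Weighted to the chromosomes of the SLC regions, the share of other coding genes was 57.4%, and weighted to their annotations it was 56.5%. Intervals here cover counting error only, and reads that carry no molecular identifier can be copies of 1 molecule. It is not stated whether both libraries were called at the same threshold or against an input, so numbers of calls may not be comparable between them.

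The reads behind each call were few. Reads are given per window of 2 kb, as recovered from the deposited signals. At LGP2-only regions the medians were 4 LGP2 reads and 2 vector reads, and at vector-only regions they were 1 LGP2 read and 4 vector reads. The calling library had between 2 and 10 reads at every SLC region. The vector library had no read at 24 of the 145 LGP2-only regions (16.6%), and the LGP2 library had none at 30 of the 93 vector-only regions (32.3%). At 15 regions the library that made the call had fewer reads than the other, and at 19 the reads were equal. At all 238 regions the 95% Poisson intervals of both libraries overlapped. Such overlap does not show that the libraries agreed at a region, and no single region was tested. Regions close together also share reads: 24 regions at 12 genes lay with their summits within 2 kb of another SLC region.

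**Figure D1:**
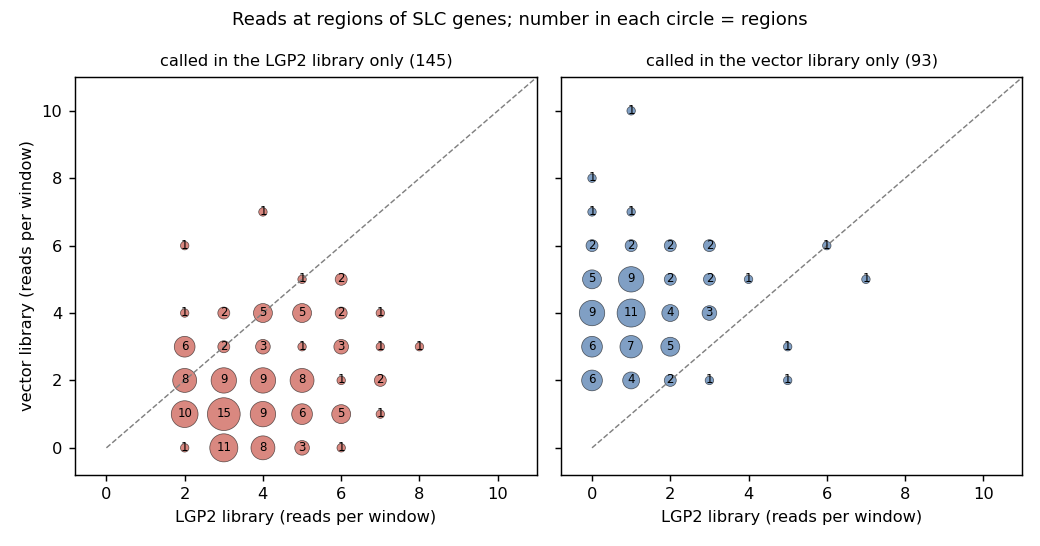
Reads in the LGP2 library (horizontal) and in the vector library (vertical) per 2 kb window at the 145 regions of SLC genes called with LGP2 only (left) and the 93 called with the vector only (right). Circle area and the number inside give the regions with that pair of reads, and the dashed line marks equal reads. Few windows hold more than 7 reads in either library, and 15 regions lie on the side of the line opposite to their call.

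Differences in signal ran in both directions. The log2 ratio of the deposited signals, LGP2 over vector, had a median of 0.43 over the SLC regions and 0.15 over all regions, and was above 0 at 141 SLC regions and below 0 at 97. The signals hold 1 added read per library, so a ratio against a library without reads is not a bound. A floored median sets a library without reads to a floor of 3 reads, and it was 0.14 for the SLC regions and 0 for all regions. The median without chromosome 20 was 0.18, and with 1 region per gene it was 0.16. At least 2-fold higher with LGP2 were 74 SLC regions (31.1%), beside 29.5% of all regions, and at least 2-fold lower were 57 (23.9%), beside 25.2%. Both shares were near those of all regions. When the libraries were scaled instead by their reads at regions called only in the other library, 99 SLC regions were higher and 43 lower. Over all regions 11250 were then higher and 5738 lower, with a shift of 0.33 in the median. When the libraries were scaled to a median of 0 over all regions, a move of -0.15, 59 SLC regions were higher and 64 lower. Over all regions it was 6868 higher and 8841 lower. With 5 reads added to each library in place of 1, 10 SLC regions were higher and 5 lower, beside 954 and 443 of all regions. As deposited, 8655 of all regions were higher and 7388 lower. Under each setting the SLC counts moved in the same directions as those over all regions. That was fixed in advance and is no check. A scaling moves the ratios of all regions by much the same amount, and added reads shrink them.

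The families differed in which library called their regions. Amino acid carriers of SLC1 and SLC7 were called mostly in the vector library, while SLC6, SLC9, SLC10 and SLC37 were called mostly or wholly in the LGP2 library. These families were picked out after their values were seen, and each rests on few regions, so the counts describe these libraries and no test was made. All counts of calls by family, class or list are to be read beside the 55.0% LGP2-only of all regions called in 1 library. SLC1 and SLC7 together had 24 regions at 12 genes, with 3 LGP2-only and 21 vector-only (12.5% LGP2-only). Their median log2 ratio was -1.32. At least 2-fold higher were 3 of their regions (12.5%), beside 29.5% of all regions, and at least 2-fold lower were 15 (62.5%), beside 25.2%. Their floored median was -0.16. The other SLC families had 142 LGP2-only and 72 vector-only regions (66.4% [59.6 to 72.7]), a median of 0.56 and a floored median of 0.30. Counting only regions that overlap the gene itself, SLC1 and SLC7 had 2 LGP2-only and 13 vector-only regions, SLC6 had 7 and 1, SLC9 had 5 and 1, SLC37 had 6 and 0, and SLC10 had none. With 5 or more reads in the calling library, SLC6 had 5 LGP2-only and 1 vector-only region, SLC9 had 1 and 1, SLC10 had 2 and 0, and SLC37 had 3 and 0. All regions of that depth were 3424 LGP2-only and 3669 vector-only.

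**Figure D2:**
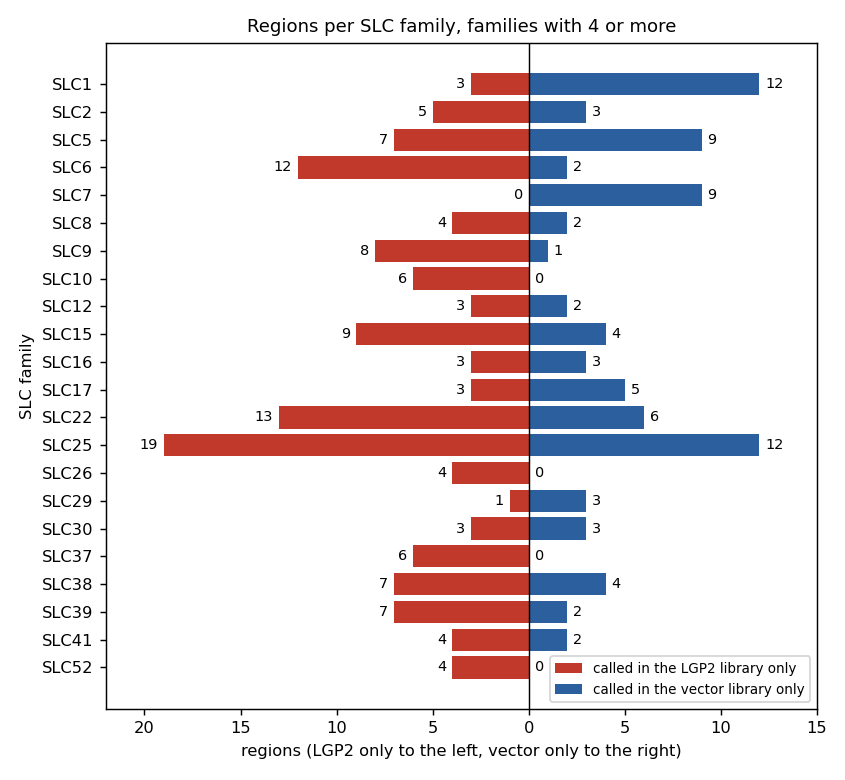
Number of regions called with LGP2 only (bars to the left) and with the vector only (bars to the right) for each SLC family with 4 or more regions. SLC1 has 3 and 12, SLC7 has 0 and 9, SLC6 has 12 and 2, SLC9 has 8 and 1, and SLC10 and SLC37 have 6 and 0 each.

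SLC1 holds the sodium-coupled carriers of glutamate and of neutral amino acids. SLC1A1, a neuronal glutamate carrier, had 4 regions, 3 of them vector-only. Its strongest lay upstream at chromosome 9, 4443987 to 4444460, inside GLIS3 and 46008 bp from the start of SLC1A1. The LGP2 library had 0 reads there [0 to 3.69] and the vector library 7 [2.81 to 14.4]. In an exon of SLC1A1, at 4576245 to 4576788, there were 0 LGP2 reads and 5 vector reads. Near the start, an intronic region held 0 LGP2 reads and 3 vector reads. The intronic region at 4525888 to 4526137 ran the other way, LGP2-only with 5 LGP2 reads and 1 vector read. SLC1A1 thus held regions of both libraries within its gene.

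SLC1A2, the main glutamate carrier of astrocytes, had 4 regions, all inside the gene. The vector-only regions had 0 LGP2 and 4 vector reads, 2 LGP2 and 2 vector reads, and 1 LGP2 and 4 vector reads, and the LGP2-only region had 3 LGP2 reads and 1 vector read. At SLC1A6 the 2 regions inside the gene were vector-only, with 0 LGP2 and 4 vector reads and with 3 LGP2 and 4 vector reads. Upstream of SLC1A6 a pair of regions shared part of their windows, and one was LGP2-only with 3 LGP2 reads and 0 vector reads while its neighbour was vector-only with 1 LGP2 read and 3 vector reads. The neutral amino acid carriers SLC1A4 and SLC1A5, of which SLC1A5 takes up glutamine, each had 1 vector-only region with 0 LGP2 and 4 vector reads. SLC1A7, a glutamate carrier of the retina, had 1 with 1 LGP2 and 3 vector reads. Of the 7 SLC1 genes in RefSeq, 6 had a region.

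SLC7 includes the light subunits of amino acid exchangers. All 9 regions, at 6 of 13 genes, were vector-only, and 4 of them overlapped their gene. SLC7A11, the cystine-glutamate exchanger xCT, had 1 intronic region at chromosome 4, 138212739 to 138213116, that held 0 LGP2 reads and 2 vector reads, too few for any fold. SLC7A5, the large neutral amino acid carrier LAT1, had an intronic region at chromosome 16, 87843735 to 87843986. It was vector-only by the call but had 7 LGP2 reads [2.81 to 14.4] and 5 vector reads [1.62 to 11.7], a log2 ratio of 0.60. At SLC7A13 an intronic region had 0 LGP2 and 5 vector reads. SLC7A10, a carrier of small neutral amino acids, had 3 regions with 0, 1 and 3 LGP2 reads and 4, 5 and 5 vector reads in the same order. Both regions of SLC7A14 had 1 LGP2 read and 4 vector reads, and the region of SLC7A7 had 0 LGP2 and 2 vector reads. With 5 or more reads in the calling library, 0 LGP2-only and 4 vector-only regions of SLC7 were left, and 1 and 2 of SLC1.

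SLC38, the sodium-coupled carriers of glutamine and other neutral amino acids, was divided. The LGP2 library alone called 7 of its regions and the vector library alone 4, all lay inside their genes, of which there were 6. SLC38A1, a glutamine carrier, had a vector-only region at chromosome 12, 46198328 to 46198634, annotated as promoter within 1 kb of a start. It held 0 LGP2 reads and 5 vector reads. In an exon of the same gene an LGP2-only region had 4 LGP2 reads and 3 vector reads. SLC38A8 had an intronic LGP2-only region at chromosome 16, 84025323 to 84025596. It held 4 LGP2 reads and 0 vector reads, and a vector-only region of the same gene held 1 LGP2 read and 6 vector reads. Over the class of amino acid carriers, which adds SLC36A2, 11 regions were LGP2-only and 25 vector-only (30.6%, beside 55.0% of all regions). The class had a median log2 ratio of -1.03 and a floored median of -0.16. Classes were assigned by family number. The amino acid carriers SLC6A15 and SLC6A17, with 2 LGP2-only regions each, were thus counted with the neurotransmitter carriers, and the class figures depend on this sorting.

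**Figure D3:**
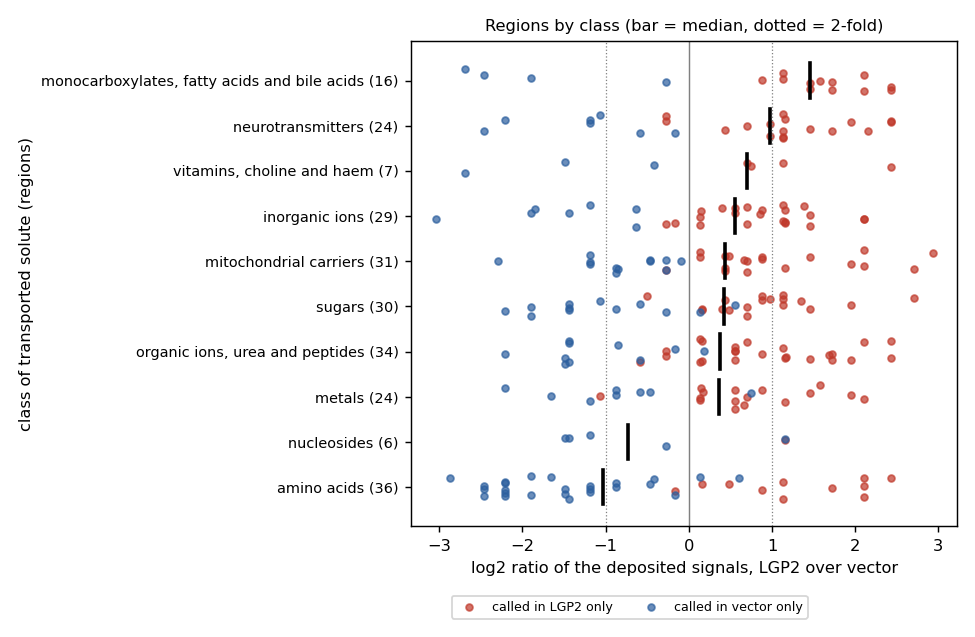
Log2 ratio of the deposited signals, LGP2 over vector, for each region of an SLC gene, by class, with the number of regions in parentheses. Classes name a main solute but were assigned by family number. The class of sugars thus holds SLC5A5, SLC5A7 and SLC5A12, which carry iodide, choline and lactate. Points are regions coloured by the library that called them, black bars are medians and dotted lines mark 2-fold. Medians run between 1.46 for monocarboxylates, fatty acids and bile acids and -1.03 for amino acids, and every class spans both sides of 0.

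A list of 17 genes for glutamate, cystine and glutamine transport crosses these families and adds the vesicular glutamate carriers. Regions were found at 10 of these genes, 6 called with LGP2 and 12 with the vector. That is 33.3% LGP2-only, beside 55.0% of all regions called in 1 library. The list had a median log2 ratio of -0.89 and a floored median of -0.08. At least 2-fold higher were 4 of its 18 regions (22.2%), beside 29.5% of all regions, and at least 2-fold lower were 9, beside 25.2%. SLC17A6 and SLC17A7, which load glutamate into vesicles, had 1 LGP2-only region each, with 3 LGP2 reads and 1 vector read at SLC17A6 and with 2 LGP2 and 3 vector reads at SLC17A7. SLC17A8, the third vesicular glutamate carrier, had an LGP2-only and a vector-only region that shared part of their windows, with 4 LGP2 reads and 1 vector read at the first and 2 LGP2 and 4 vector reads at the other. The rest of SLC17, which carries phosphate and organic anions, was vector-only, and SLC17A2 had the largest ratio, with 0 LGP2 reads and 5 vector reads at an intergenic region.

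Carriers of neurotransmitters at the cell surface, SLC6, showed the opposite split to SLC1. The family had 12 LGP2-only and 2 vector-only regions at 7 of 19 genes, a median log2 ratio of 1.13 and a floored median of 0.84. At least 2-fold higher were 8 of the 14 (57.1%), beside 29.5% of all regions, and at least 2-fold lower was 1 (7.14%), beside 25.2%. SLC6A11, a GABA carrier of glia, had LGP2-only regions upstream of the gene with 7 LGP2 reads and 1 vector read, and with 4 LGP2 reads and 0 vector reads. At SLC6A2, the noradrenaline carrier, a region annotated as promoter at chromosome 16, 55655411 to 55655718, and 270 bp from the RefSeq gene, had 5 LGP2 reads and 1 vector read. Further upstream of SLC6A2 a vector-only region had 2 LGP2 reads and 6 vector reads. SLC6A3, the dopamine carrier, had 3 LGP2-only regions, with 6, 5 and 2 LGP2 reads and 3, 4 and 3 vector reads in the same order. The neutral amino acid carriers SLC6A15 and SLC6A17 had 2 LGP2-only regions each, with 3 or 4 LGP2 reads and 0 or 1 vector read. SLC32A1 had a further LGP2-only region 6072 bp from its start, with 6 LGP2 reads and 1 vector read.

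Sugar carriers showed no common direction. SLC2, the facilitated carriers of glucose and other hexoses, had 5 LGP2-only and 3 vector-only regions. SLC2A10 had a pair of LGP2-only regions downstream in intergenic sequence on chromosome 20, 75610 and 76754 bp from the gene start, with 8 LGP2 and 3 vector reads and with 6 LGP2 and 5 vector reads, in windows that overlap. SLC2A5, the fructose carrier, had a vector-only intronic region with 0 LGP2 reads and 3 vector reads. SLC2A6 had a vector-only region with 1 LGP2 read and 5 vector reads, and SLC2A13, a carrier of myo-inositol, had 1 vector-only and 2 LGP2-only regions with 2 to 4 LGP2 reads and 1 or 2 vector reads. SLC5A1, the sodium-coupled glucose carrier of the intestine, had an LGP2-only region with 4 LGP2 and 3 vector reads and a vector-only region with 2 LGP2 and 3 vector reads. SLC2A1 and SLC2A3, the main glucose carriers of many tumours and of neurons, had no region in the table used here. The glucose list, 14 genes long, had regions at 5 of them, 5 LGP2-only and 4 vector-only. That share, 55.6% LGP2-only, was near the 55.0% of all regions called in 1 library. Its median log2 ratio and its floored median were 0.40.

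SLC37, which exchanges sugar phosphate for phosphate at the endoplasmic reticulum, had 6 LGP2-only regions and 0 vector-only, all inside their genes. SLC37A1 had 4 of them. The strongest lay in an intron at chromosome 21, 42532979 to 42533292, and held 5 LGP2 reads [1.62 to 11.7] and 0 vector reads [0 to 3.69]. The other regions of SLC37A1 had 4, 3 and 5 LGP2 reads and 2, 1 and 4 vector reads in the same order. SLC5, whose members couple sodium to glucose, iodide, choline and other solutes, had 7 LGP2-only and 9 vector-only regions. SLC5A7, the choline carrier of cholinergic neurons, had 4 regions, all with fewer LGP2 than vector reads: 1 and 5, 1 and 3, 2 and 6, and 4 and 7, the last called with LGP2 only. SLC5A12, a lactate carrier of the kidney, had 4 regions, with 2 LGP2 reads and 1 vector read inside the gene and 3 and 2, 3 and 1, and 0 and 4 LGP2 and vector reads upstream of it.

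Carriers of monocarboxylates, fatty acids and bile acids had 12 LGP2-only and 4 vector-only regions and the highest class median, 1.46, with a floored median of 0.68. None of the 16 regions was annotated as promoter and 4 overlapped their gene. SLC10A2, the bile acid carrier of the ileum, had 4 LGP2-only regions, all intergenic. It had 3 LGP2 and 0 vector reads at 103015383 to 103015638 on chromosome 13, and 4 LGP2 and 0 vector reads at 103164893 to 103165153. At 103170700 to 103171016 and at 103173831 to 103174129 there were 3 LGP2 reads and 1 vector read each. The gene itself, 22420 bp long, held none of them, and they lay between 50779 and 107414 bp from its start. SLC10A7 had 2 LGP2-only regions in shared windows, with 5 LGP2 reads and 1 vector read.

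The lactate carriers of SLC16 that had a region were vector-only. SLC16A1, known as MCT1, had an intronic region with 2 LGP2 and 3 vector reads. SLC16A7, known as MCT2, had 2 intronic regions on chromosome 12. That at 59764765 to 59765058 held 0 LGP2 and 5 vector reads, and that at 59702685 to 59703118 held 0 LGP2 and 3 vector reads. The LGP2-only regions of the same family were at SLC16A4, SLC16A5 and SLC16A14, with 4, 3 and 7 LGP2 reads and 1, 0 and 2 vector reads in that order. SLC27A2, which takes up and activates very long-chain fatty acids, had one region of each library, both inside ATP8B4. The vector-only region had 0 LGP2 reads and 6 vector reads and the LGP2-only region 4 LGP2 reads and 0 vector reads. SLC27A6, of the same family, had 1 LGP2-only region with 4 LGP2 reads and 1 vector read. SLC33A1, the acetyl-CoA carrier of the endoplasmic reticulum, had 1 LGP2-only intronic region with 4 LGP2 and 2 vector reads. SLC25A20, which carries acylcarnitines into mitochondria, had 2 and 5, 4 and 5, and 2 and 3 LGP2 and vector reads. A list for monocarboxylates, fatty acids and acetyl-CoA had regions at 7 of its 16 genes, 6 LGP2-only and 8 vector-only. That is 42.9% LGP2-only, beside 55.0% of all regions called in 1 library. The list had a median log2 ratio of -0.18, or -0.05 when floored.

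SLC25, the carriers of the inner mitochondrial membrane, was the family with the most regions, 31 at 19 of 48 genes. Of these regions 19 were LGP2-only and 12 vector-only (61.3% LGP2-only, beside 55.0% of all regions called in 1 library). The median log2 ratio of SLC25 was 0.43 and its floored median 0.13. SLC25A26, which brings S-adenosylmethionine into mitochondria, had 5 regions, all LGP2-only. Upstream of the gene, at chromosome 3, 66125185 to 66125604, the LGP2 library had 6 reads [2.20 to 13.1] and the vector library 0 [0 to 3.69], the largest ratio with LGP2 of all SLC regions. Inside SLC25A26 there were 3 LGP2 and 0 vector reads at 66141405 to 66141733, and 6 LGP2 and 4 vector reads at 66252234 to 66252499. A pair of neighbours at 66194443 to 66194815 and at 66195448 to 66195791 shared windows and had 5 LGP2 and 4 vector reads each. SLC25A12, an aspartate-glutamate carrier, had a region annotated as promoter at chromosome 2, 171788425 to 171789115, that held 5 LGP2 reads and 0 vector reads. It lay inside the gene, 105129 bp from the outer start. At SLC25A40 both regions lay inside RUNDC3B. One, at chromosome 7, 87818730 to 87819136, had 1 LGP2 read [0.0253 to 5.57] and 10 vector reads [4.80 to 18.4], the most vector reads of any SLC region. The other had 6 LGP2 reads and 1 vector read.

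**Figure D4:**
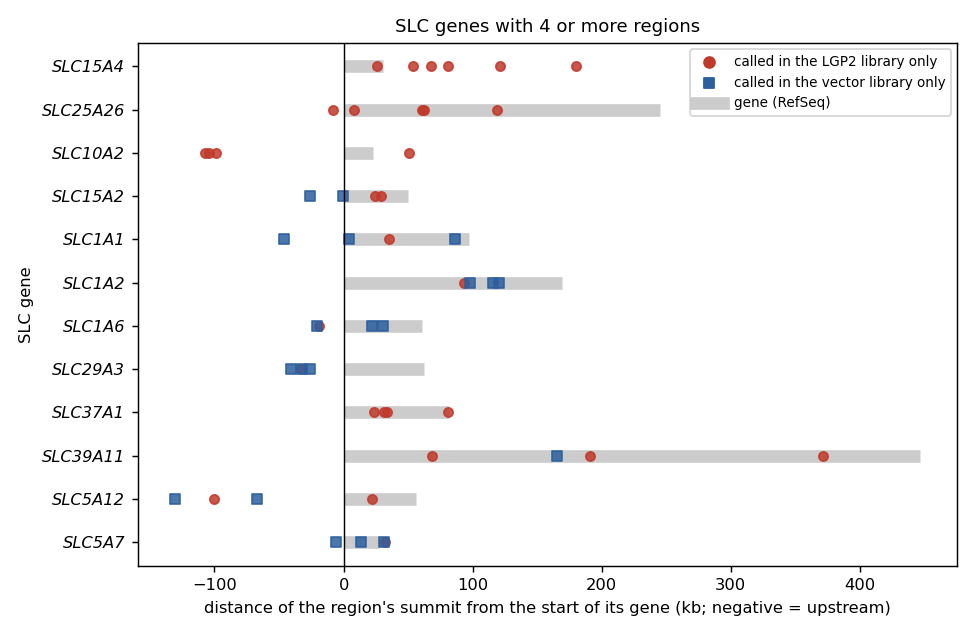
Distance of each region's summit from the start of its gene, in kb along the direction of transcription, for the SLC genes with 4 or more regions. Circles are LGP2-only and squares vector-only regions, and grey bars are the RefSeq genes. SLC15A4, SLC25A26, SLC10A2 and SLC37A1 have LGP2-only regions alone, and the regions of SLC10A2 and SLC29A3 lie outside the gene.

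Carriers linked to innate immune sensing were listed because LGP2 belongs to that system. SLC15A3 and SLC15A4 bring bacterial peptides out of endolysosomes, SLC19A1 carries folates and cyclic dinucleotides, and SLC29A3 is a lysosomal nucleoside carrier. The list had 18 regions at 6 of 9 genes, 10 LGP2-only and 8 vector-only. That share, 55.6% LGP2-only, was near the 55.0% of all regions called in 1 library. The median log2 ratio was 0.72 and the floored median 0.48. At least 2-fold higher were 8 of them (44.4%), beside 29.5% of all regions, and at least 2-fold lower were 4 (22.2%), beside 25.2%. Only 5 of the 18 regions (27.8%) overlapped the gene they were assigned to, beside 62.2% of all SLC regions. The higher regions were assigned to SLC15A4, SLC29A3 and SLC11A1, and most of them lay outside these genes. SLC15A4 had the most regions of any SLC gene, 6, all LGP2-only. Inside the gene, at chromosome 12, 128797538 to 128797876, there were 6 LGP2 reads and 1 vector read. The other 5 lay downstream of the gene. At 128769837 to 128770275 and at 128755704 to 128756028 there were 4 LGP2 reads and 0 vector reads each. At 128742872 to 128743138 there were 4 LGP2 reads and 1 vector read. The 2 farthest lay in TMEM132C, with 2 LGP2 and 3 vector reads at 128702795 to 128703240 and with 3 LGP2 reads and 1 vector read at 128644064 to 128644340. The LGP2 library thus had more reads at 5 of the 6.

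SLC15A3 had 1 vector-only region, annotated as promoter within 1 kb, with 1 LGP2 read and 5 vector reads. SLC15A2 had, beside the region at its start, a vector-only region inside EAF2 with 2 LGP2 and 4 vector reads. Inside SLC15A2 were LGP2-only regions with 3 LGP2 and 2 vector reads and with 4 LGP2 and 2 vector reads. SLC19A1 had 2 vector-only regions on chromosome 21. That at 45567695 to 45567998 held 0 LGP2 and 6 vector reads, and that at 45573965 to 45574284 held 3 LGP2 and 5 vector reads. Both lay outside the RefSeq gene. All 4 regions of SLC29A3 lay in UNC5B, upstream, with 0 and 2, 5 and 2, 5 and 2, and 1 and 4 LGP2 and vector reads, and the middle pair shared windows although one was called with LGP2 and the other with the vector. SLC11A1, an iron and manganese carrier of macrophage phagosomes, had 1 LGP2-only region with 4 LGP2 reads and 1 vector read.

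Carriers of inorganic ions had 22 LGP2-only and 7 vector-only regions (75.9% LGP2-only, beside 55.0% of all regions called in 1 library). Their median log2 ratio was 0.56, or 0.40 when floored. SLC9, the sodium-proton exchangers that set the pH of the cytosol and of organelles, had 8 LGP2-only and 1 vector-only region. SLC9A3, the exchanger of gut and kidney, had 2 LGP2-only regions, with 4 LGP2 reads and 1 vector read and with 3 LGP2 and 0 vector reads. SLC9A2 had 1 LGP2-only region, with 5 LGP2 and 2 vector reads. SLC9A9, an endosomal exchanger, had 3 regions with 3 LGP2 reads each and 2, 4 and 6 vector reads. SLC12A7, a potassium-chloride cotransporter, had the most negative ratio of all SLC regions, -3.04. That region, at chromosome 5, 1128984 to 1129449, was annotated as distal intergenic but overlapped the RefSeq gene 26450 bp from its outer start. The LGP2 library had 0 reads there [0 to 3.69] and the vector library 8 [3.45 to 15.8]. In an intron of SLC12A7, at 1102520 to 1103071, an LGP2-only region had 5 LGP2 and 2 vector reads. The neuronal SLC12A5 had 4 LGP2 and 2 vector reads.

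The chloride and pH list had regions at 8 of its 13 genes, 8 LGP2-only and 4 vector-only (66.7%, beside 55.0% of all regions). The list had a median log2 ratio of 0.79, or 0.43 when floored. Its bicarbonate carriers with a region were vector-only. SLC4A8, of the same family but not on the list, had an LGP2-only region with 4 LGP2 reads and 1 vector read. SLC4A7 had 1 LGP2 read and 5 vector reads at a region annotated as promoter, and an intron of SLC4A4 held 0 LGP2 and 3 vector reads. SLC8, the sodium-calcium exchangers, had 4 LGP2-only and 2 vector-only regions, with the largest ratio in an exon of SLC8A2, 3 LGP2 reads and 0 vector reads. At SLC13A3, a dicarboxylate carrier on chromosome 20, 2 LGP2-only regions in overlapping windows had 7 LGP2 and 4 vector reads and 6 LGP2 and 2 vector reads. SLC26, anion exchangers, had 4 LGP2-only regions and 0 vector-only, among them SLC26A4, the iodide and chloride carrier pendrin, with 6 LGP2 and 5 vector reads.

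Metal carriers had 16 LGP2-only and 8 vector-only regions (66.7% LGP2-only, beside 55.0% of all regions called in 1 library). Their median log2 ratio was 0.37, or 0.16 when floored. SLC39, which moves zinc and other metals into the cytosol, had 7 LGP2-only and 2 vector-only regions. The long gene SLC39A11 held 4 intronic regions with 2, 3, 5 and 2 LGP2 reads and 2, 2, 3 and 1 vector reads in the same order, and the third was called with the vector although LGP2 reads were more. SLC39A4, the zinc carrier of the intestine, had an LGP2-only region at the gene's start with 6 LGP2 and 4 vector reads and another with 2 LGP2 and 6 vector reads. SLC39A8 had a vector-only intergenic region with 0 LGP2 and 4 vector reads. SLC30, which moves zinc out of the cytosol, had 3 regions of each library, with 3 LGP2 and 0 vector reads downstream of SLC30A1 as the largest ratio. SLC41, magnesium carriers, had 4 LGP2-only and 2 vector-only regions, and the 3 of SLC41A3 were LGP2-only with 6, 7 and 3 LGP2 reads and 1, 2 and 2 vector reads in the same order.

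Carriers of organic ions, urea and peptides had 24 LGP2-only and 10 vector-only regions (70.6% LGP2-only, beside 55.0% of all regions called in 1 library). Their median log2 ratio was 0.37, or 0.16 when floored. SLC22, the organic cation and anion carriers of liver and kidney, had 13 LGP2-only and 6 vector-only regions and 12 of its 21 genes were among them. SLC22A5, the carnitine carrier, had a vector-only region annotated as promoter with 0 LGP2 and 4 vector reads. SLC22A9 had one 72 bp from the gene start with 1 LGP2 read and 5 vector reads. Nucleoside carriers had 1 LGP2-only and 5 vector-only regions, none inside its gene. Carriers of vitamins, choline and haem had 4 LGP2-only and 3 vector-only regions. All 4 regions of the riboflavin carriers SLC52 were LGP2-only, and at SLC52A2 the LGP2 library had 4 reads and the vector library 0. SLC66A2, outside the classes used here, had an LGP2-only region annotated as promoter at chromosome 18, 79916290 to 79916705, that held 5 LGP2 reads and 0 vector reads.

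Introns held the largest share of the SLC regions. By the authors' annotation 102 regions (42.9%) were intronic, 64 (26.9% [21.4 to 33]) lay in promoters, 53 (22.3%) were distal intergenic, 9 were exonic, 6 lay in a 3′ UTR, 3 in a 5′ UTR and 1 just downstream. The promoter share was 27.1% over regions of other coding genes and 20.1% over all regions, so it was near that of other coding genes. The promoter label reaches 3 kb to either side of any transcript start, and 30 regions lay within 1 kb, 17 at 1 to 2 kb and 17 at 2 to 3 kb. Of the 64 promoter regions, 25 (39.1%) lay within 3 kb of the RefSeq start of the gene they were assigned to. The nearest transcript was protein-coding at 125 of the 238 regions, and a retained intron, processed transcript or transcript marked for decay at 58, 36 and 19. The LGP2 library called 37 of the promoter regions and the vector library 27.

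A region's gene is the gene of the nearest transcript start, not always the gene that the region lies in. Of the 238 regions, 148 (62.2% [55.7 to 68.4]) overlapped the SLC gene they were assigned to, 17 overlapped only another coding gene and 73 overlapped none. Over other coding genes matched to RefSeq, the share in the gene was 69.1%. Of the regions outside, 61 lay upstream of the SLC gene and 29 downstream. Inside their SLC gene, 93 were LGP2-only and 55 vector-only.

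SLC genes with a region were 137 of 347 in RefSeq (39.5% [34.3 to 44.8]), against 6728 of 19709 other coding genes (34.1% [33.5 to 34.8]). Gene length moved with this share, as the median length was 37056 bp for SLC genes and 23901 bp for other coding genes. In the third class of gene length out of 4, 24093 to 65015 bp, 64 of 132 SLC genes (48.5% [39.7 to 57.3]) had a region, against 35.5% [34.2 to 36.9] of other coding genes. In the longest class it was 45 of 91 SLC genes (49.5% [38.8 to 60.1]) against 62.4% [61.0 to 63.7]. In the shorter classes the intervals overlapped, with 18.2% against 14.7% and 25% against 24.2%. The SLC share was thus above that of other coding genes in one length class and below it in another.

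**Figure D5:**
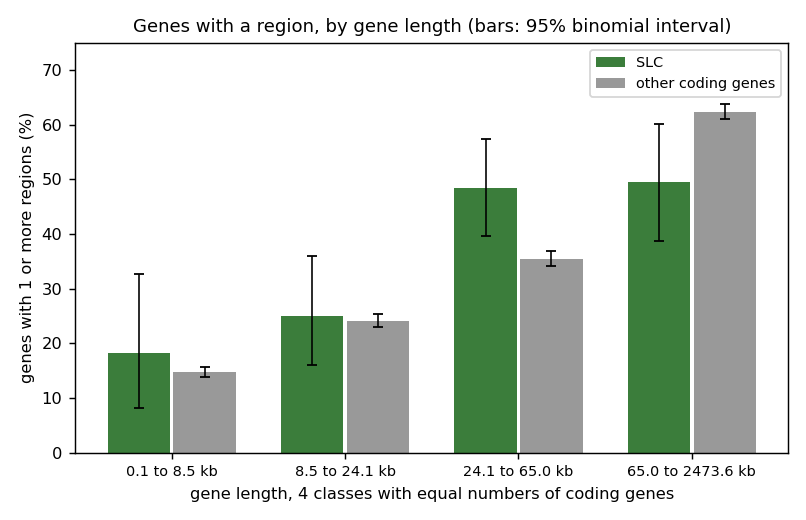
Share of genes with 1 or more regions (percent) for SLC genes and for other coding genes, in 4 classes of gene length. Bars are shares and lines exact binomial 95% intervals. SLC genes stand at 48.5% against 35.5% in the third class and at 49.5% against 62.4% in the longest.

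Most SLC genes with a region had only 1. There were 74 genes with 1 region and 63 with 2 or more. Of the 63, 31 had regions of both libraries, 23 had LGP2-only regions alone and 9 had vector-only regions alone. Where both libraries had a region at a gene, the direction of the gene was not settled by its regions, as at SLC1A1, SLC27A2, SLC38A8 and SLC25A40.

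By chromosome, 9 LGP2-only and 0 vector-only SLC regions lay on chromosome 20, where 78.7% of regions of other coding genes were LGP2-only, and 13 LGP2-only and 1 vector-only lay on chromosome 17, where that share was 64.5%. The SLC1 and SLC7 regions were spread over chromosomes 1, 2, 3, 4, 8, 9, 11, 14, 16 and 19. Chromosome 19, with 6 LGP2-only and 10 vector-only SLC regions beside 62.0% LGP2-only over other coding genes, held several of them, at SLC1A5, SLC1A6 and SLC7A10.

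Other transport genes, chosen by symbol, were counted in the same way. The organic anion carriers named SLCO had 8 LGP2-only and 10 vector-only regions at 8 of 11 genes and a median log2 ratio of -0.06. ABC transporters, which split ATP to move their load, had 27 LGP2-only and 23 vector-only regions at 27 of 45 genes and a median of 0.14. P-type ATPases, the ion pumps, had 24 LGP2-only and 15 vector-only regions at 20 of 36 genes and a median of 0.16. Subunits of the V-type ATPase, the proton pump of organelles, had 2 LGP2-only and 2 vector-only regions, and aquaporins, the water channels, had 3 LGP2-only and 1 vector-only region. The LGP2-only share was 54.0% [39.3 to 68.2] for ABC transporters and 61.5% [44.6 to 76.6] for P-type ATPases, and both intervals hold the 60.9% of the SLC regions.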

How the data were processed

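The series held 4 samples of T98G cells, a ChIP and an input library with LGP2 and with the empty vector, and groups were taken from the labels. The authors deposited 1 table of regions called per library, with a normalized read density (a signal value) for each ChIP library, which was used here. The 3 columns of the authors' own comparison, a log2 ratio, a mean level and a p-value, were not used. The aligner, caller, threshold and normalization tool were not given in the sources used here. By the labels the build was mm10, a mouse build, but all 238 SLC transcripts overlapped the human RefSeq gene of their symbol on GRCh38.p14, and positions are read as that build.

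Whole reads were recovered from the deposited signals after removal of a line in the mean log2 level (intercept 0.105, slope 0.0452), with 1 read added per library and a window of 2 kb, which was inferred from the scale. The largest distance from a whole read was 0.00038 (tolerance 0.01), and 100% of the values came out whole. The recovery was tested on simulated data. Total library depth is unknown. Log2 ratios were computed from the per-library signals. Reads have exact Poisson and shares exact Clopper-Pearson 95% intervals, which cover counting error only. Floored medians set a library without reads to a floor of 3 reads, or the ratio to 0 where the other library had 3 reads or fewer. Python 3.11.15, pandas 2.3.3, numpy 2.4.6, scipy 1.17.1 and matplotlib 3.10.9 were used.

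The members, gene lists and rules were chosen with earlier results of these data known. Named were the 10 regions with the largest ratio in each direction, the 10 with the most reads, every region called in both libraries (0), genes with 4 or more regions, promoter regions within 1 kb with 5 or more reads in the calling library, the region with the largest ratio in each family with 5 or more regions, and genes of 5 lists. Other genes named were chosen after their values were seen. Values of some genes that the rule names are not reported here. Alternatives covered depth, distal regions, chromosome 20, 1 region per gene, the reads added, the scaling, the distance at which regions count as shared and the promoter width. Regions overlapping the gene itself and a wider symbol pattern were added after the data were seen.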

Additional observations from a re-analysis of the deposited data

How the results depend on the processing

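The LGP2-only share of the SLC regions lay between 56.9% and 62.8% under every alternative run. The background moved as well. With 5 or more reads in the calling library, 44 SLC regions were LGP2-only and 33 vector-only (57.1%). At that depth it was 3424 and 3669 over all regions, and 1513 and 1536 over other coding genes. For the other subsets no share over all regions is given here. The count at least 2-fold higher was 29 with 5 or more reads in the calling library, 34 with 1 region per gene, 38 for regions overlapping the gene itself and 10 with 5 reads added. The count at least 2-fold lower was 24, 34, 32 and 5 under the same settings. Requiring 5 reads in the calling library left 57 genes with a region. These subsets hold fewer regions by construction, and their 2-fold counts have no counts over all regions beside them here. The median log2 ratio was 0.74 under scaling to the reads at regions that the opposite library called, beside 0.48 over all regions. The promoter share was 34.6% without distal intergenic regions, 33.8% for regions overlapping the gene itself and 12.6% with promoters within 1 kb only. Of 117 named regions, none of the 72 past 2-fold changed sign under another scaling or with 5 reads added. That outcome was fixed in advance and is no check of these regions. The scalings moved the median by only -0.15 and 0.33, and reads added to both libraries only shrink a ratio. Of the 45 under 2-fold, 1 changed sign with 5 reads added, 3 when scaled to a median of 0 and 7 when scaled by the other library, all with log2 ratios within 0.27 of 0. No paired analysis was possible because each group had 1 ChIP library and no test was made. Depth limits every region: a library without reads allows up to 3.69 reads, and the LGP2 and vector intervals overlapped at all 238 regions.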

Other observations

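Of the 14 SLC genes on the X chromosome in RefSeq, 0 had a region. Few regions of other coding genes lay on that chromosome either, 272 of 12374. The share of other coding genes there with a region is not given, so the absence cannot be called particular to SLC genes. Among symbols with the letter A, the ones that were searched, no region in the table used here was assigned to SLC35, with 5 such genes in RefSeq, which carry nucleotide sugars into the Golgi, to SLC24 with 5 genes, which exchange sodium for calcium and potassium, or to SLC45 with 4. The vesicular amine carriers SLC18, the ascorbate carriers SLC23, the phosphate carriers SLC34 and the large neutral amino acid carriers SLC43 had 3 genes each and no region. SLC3, whose proteins bring some SLC7 carriers to the cell surface, had 2 genes and no region. Only 137 of 347 SLC genes (39.5%) had a region at all, so absence from families of so few genes says little.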
